A study of Homo sapiens with 24 samples.

Results

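The genes described here are cancer-testis antigens outside the MAGE-A family: CTAG2, CTCFL, DDX43, BRDT, SSX1, FMR1NB, GAGE1 and FATE1. They were taken by name: every probe set whose only gene symbol in the array's probe table was one of these 8 symbols was used, which gave 10 probe sets, 2 each for CTAG2 and SSX1 and 1 for every other gene. The pairs are told apart by the suffix of their names: at for CTAG2 and s_at for SSX1, and x_at in both, which marks probes that may bind other transcripts too. The array holds 54675 probe sets, of which 41091 have 1 symbol. RNA was measured in the established human colorectal cancer line HCT116, treated for 72 h with DNMT1 inhibitors or with dimethyl sulfoxide (DMSO), their solvent, on Affymetrix HG-U133 Plus 2.0 arrays. All 24 arrays come from that 1 line with no change to its genome stated in the labels, and they form 11 groups: DMSO with 4 arrays and 10 treated groups with 2 arrays each. Decitabine (DAC) was given at 5 µM and 120 nM, azacytidine (Aza) at 1500 nM and 150 nM, and the prodrugs known here by code name only, G668684 and G669043, at 7 µM and 150 nM and at 1500 nM and 150 nM. For the prodrug G669071 the sample titles state 63 µM and 6 µM and the source names 120 nM and 6 nM, so only "higher" and "lower" are used for it. The labels do not say that replicates were separate cultures, so the spread behind each p-value is that of these arrays and could be technical.

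Cancer-testis antigens are genes read mainly in male germ cells and silent in most other adult tissues, and tumours often switch them on again. DNA methylation at their promoters is one of the mechanisms that keep them silent, and DAC and Aza, cytidine analogues that trap DNA methyltransferases on replicating DNA, are textbook agents for lifting it. Many of these genes lie on the X chromosome in families of near-identical copies, so an array probe can bind several copies. Their proteins range from chromatin factors (CTCFL, BRDT, SSX1) and an RNA helicase (DDX43) to a membrane protein (FMR1NB), a protein of mitochondrial membranes (FATE1) and antigens of less known function (CTAG2, GAGE1).

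To show how much methylatable sequence lies just before these genes, the 250 bases before the start were read from the RefSeq promoter table (GRCh38.p14). Bases after the start were not counted, so the numbers do not cover all methylatable sequence at a gene. The table held 6 of the 8 genes, and CTAG2 and FMR1NB are named only. The windows of DDX43, which responded strongly, of SSX1, which responded strongly on the X chromosome, of CTCFL, whose level was lower at the higher dose of DAC and G668684, and of FATE1, which gave no call, follow from 5′ to 3′ with every CG in capitals. They lie at chr6:73394578-73394827 on the plus strand (DDX43), chrX:48255142-48255391 on the plus strand (SSX1), chr20:57525653-57525902 on the minus strand (CTCFL, its outermost listed start) and chrX:151715785-151716034 on the plus strand (FATE1).
DDX43: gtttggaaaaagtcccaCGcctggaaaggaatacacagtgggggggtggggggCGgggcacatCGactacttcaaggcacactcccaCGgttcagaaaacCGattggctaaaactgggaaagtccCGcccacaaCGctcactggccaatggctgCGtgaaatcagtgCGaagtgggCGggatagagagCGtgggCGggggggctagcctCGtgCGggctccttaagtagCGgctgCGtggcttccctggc
SSX1: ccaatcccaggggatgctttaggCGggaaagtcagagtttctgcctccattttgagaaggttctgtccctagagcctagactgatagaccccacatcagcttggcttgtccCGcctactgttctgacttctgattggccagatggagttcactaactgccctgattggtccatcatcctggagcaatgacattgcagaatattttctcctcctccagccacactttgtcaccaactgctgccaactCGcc
CTCFL: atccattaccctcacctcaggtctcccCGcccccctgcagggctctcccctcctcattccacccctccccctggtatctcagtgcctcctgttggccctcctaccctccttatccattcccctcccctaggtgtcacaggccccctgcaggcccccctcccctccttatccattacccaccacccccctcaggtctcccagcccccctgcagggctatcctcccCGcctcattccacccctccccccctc
FATE1: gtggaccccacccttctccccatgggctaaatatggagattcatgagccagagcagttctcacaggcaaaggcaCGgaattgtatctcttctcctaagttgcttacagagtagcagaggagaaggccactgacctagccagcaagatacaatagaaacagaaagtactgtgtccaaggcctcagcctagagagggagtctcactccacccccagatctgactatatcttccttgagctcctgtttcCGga

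The DDX43 window holds 16 CG dinucleotides, SSX1 3, this CTCFL window 2 and FATE1 2. The other listed starts of CTCFL have 7 and 15, those of BRDT 14 and 19, and both of GAGE1 8. Over all 35116 windows of the table the median was 11, with quartiles of 3 and 23. SSX1 and FATE1, which differed widely in their response, had nearly the same low number. Whether this number bears on the response was not tested. On either strand the DDX43 window holds the GC box GGGCGG at 4 places and the CCAAT box CCAAT at 2, and the SSX1 window holds CCAAT at 3 places and no GC box. The CTCFL window has 1 GC box and no CCAAT, and the FATE1 window has neither. A GC box is found in 42.6% of all windows and CCAAT in 32.0%. Neither the ETS core, CCGGAAG, nor the TATA motif, spelled TATAAA, is in any of the 4 windows printed, and they occur in 8.52% and 10.7% of all windows. These are letter matches, and no overlap between the different motifs was removed.

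**Figure D1:**
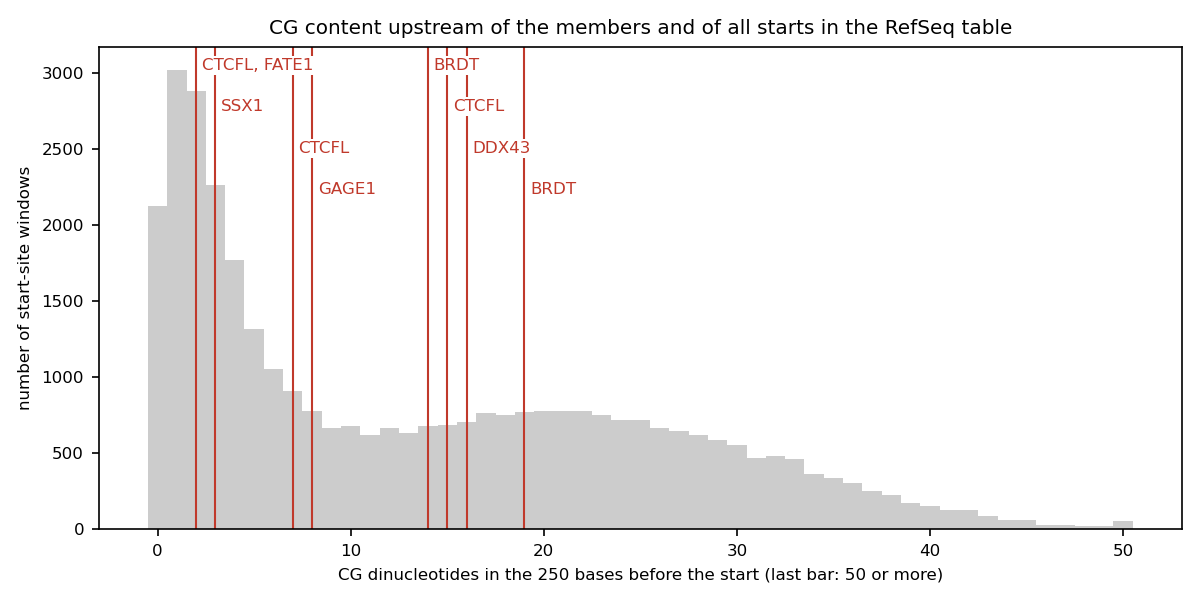
Number of CG dinucleotides in the 250 bases before each listed start (x axis) against the number of windows with that count (y axis, grey bars, 35116 windows). Red lines mark the starts of 6 member genes. FATE1 and SSX1 sit at 2 and 3 among the poorest windows, DDX43 at 16, and the starts of CTCFL spread from 2 to 15.

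The median log2 level of an array was 6.46 to 6.58, and on each array 77.1% to 79.1% of probe sets passed a log2 level of 5, the filter value. Probe sets for colon epithelial markers stood at 5.71 to 13.69 log2 in DMSO. The 4 DMSO arrays fell into 2 pairs, with r = 0.996 inside each pair (replicates 1 with 2 and 3 with 4) and 0.988 to 0.990 across them. Values against either pair are given where they change a call.

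The members were chosen with earlier results of these data known, so their share of calls is no independent evidence about cancer-testis genes as a class. With DAC at 5 µM, 9 of the 10 member probe sets were called higher than DMSO, where 15.1% of the 35146 probe sets tested were. A call means an adjusted p under 0.05 from limma, with the Benjamini-Hochberg adjustment over all probe sets tested. DAC at 120 nM raised 8 of 10 against 10.5% of all probe sets. The higher dose of G669071 raised 9 against 13.6%, and the lower dose 8 against 6.78%. G668684 raised 9 of 10 at both 7 µM and 150 nM, where 14.8% and 8.89% of all probe sets were called higher. In these 6 groups every member probe set was called except FATE1 and, with DAC at 120 nM and the lower dose of G669071, GAGE1.

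Aza at 1500 nM raised 6 of 10 (6.09% of all), and G669043 at 1500 nM also 6 of 10 (4.24%). At 150 nM neither raised any: limma called 0 of 10 with Aza, where 0.666% of all probe sets were called higher, and 0 of 10 with G669043 (0.222%). At an unadjusted p under 0.05, 1 and 2 member probe sets differed from DMSO there. No member was called lower against DMSO in the limma fit, and of 100 member fold changes 1 was lower at an unadjusted p under 0.05, that of GAGE1 with G669043 at 150 nM. The share of all probe sets called lower was 13.1% and 9.4% with DAC at 5 µM and 120 nM, 12.5% and 5.69% with the higher and lower dose of G669071, and 13.3% and 9.49% with G668684 at 7 µM and 150 nM. With Aza it was 8.21% and 0.282%, and with G669043 2.74% and 0.0341%, at 1500 nM and 150 nM.

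**Figure D2:**
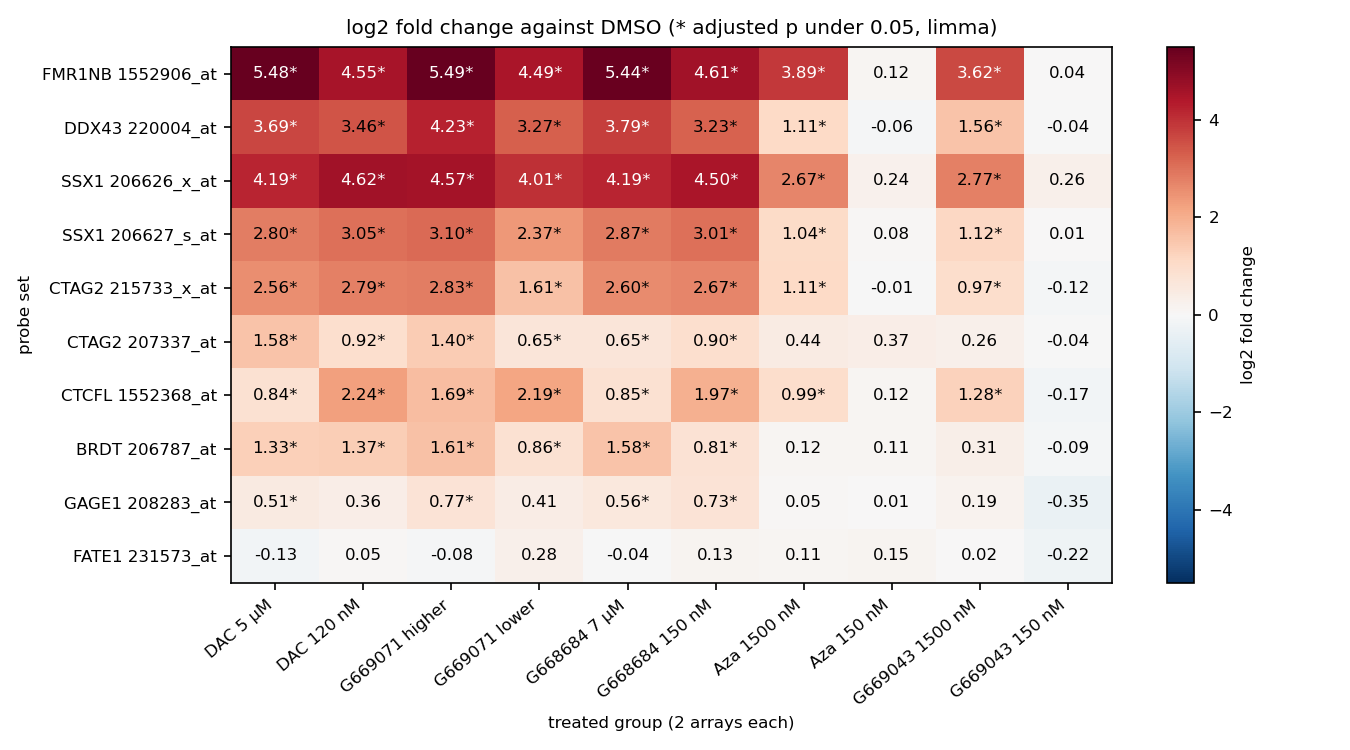
Log2 fold change against DMSO (colour and printed value) of each member probe set (rows) in each treated group (columns, 2 arrays each, against 4 DMSO arrays). An asterisk marks an adjusted p under 0.05 from limma: 64 of the 100 fold changes carry one, all of them increases, and the columns of Aza and G669043 at 150 nM carry none.

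All 10 member probe sets passed the filter of a log2 level of 5 on at least 2 arrays. FMR1NB, DDX43 and the SSX1 s_at probe set had 0 of 4 DMSO arrays at that level and passed through treated arrays alone. Their fold changes have no settled size, because no detection calls were used here and their DMSO level may be background. A level over 5 may be background too. Genes of retina, muscle, pancreas and pituitary, a reference for low levels, stood at 3.90 to 7.17 log2 in DMSO (median 6.24). The DMSO mean of every member probe set except CTAG2 x_at (7.42) was 6.57 or lower, so the sizes of those fold changes are unsettled as well. In these bulk samples more RNA per cell and more cells with the RNA cannot be told apart.

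**Figure D3:**
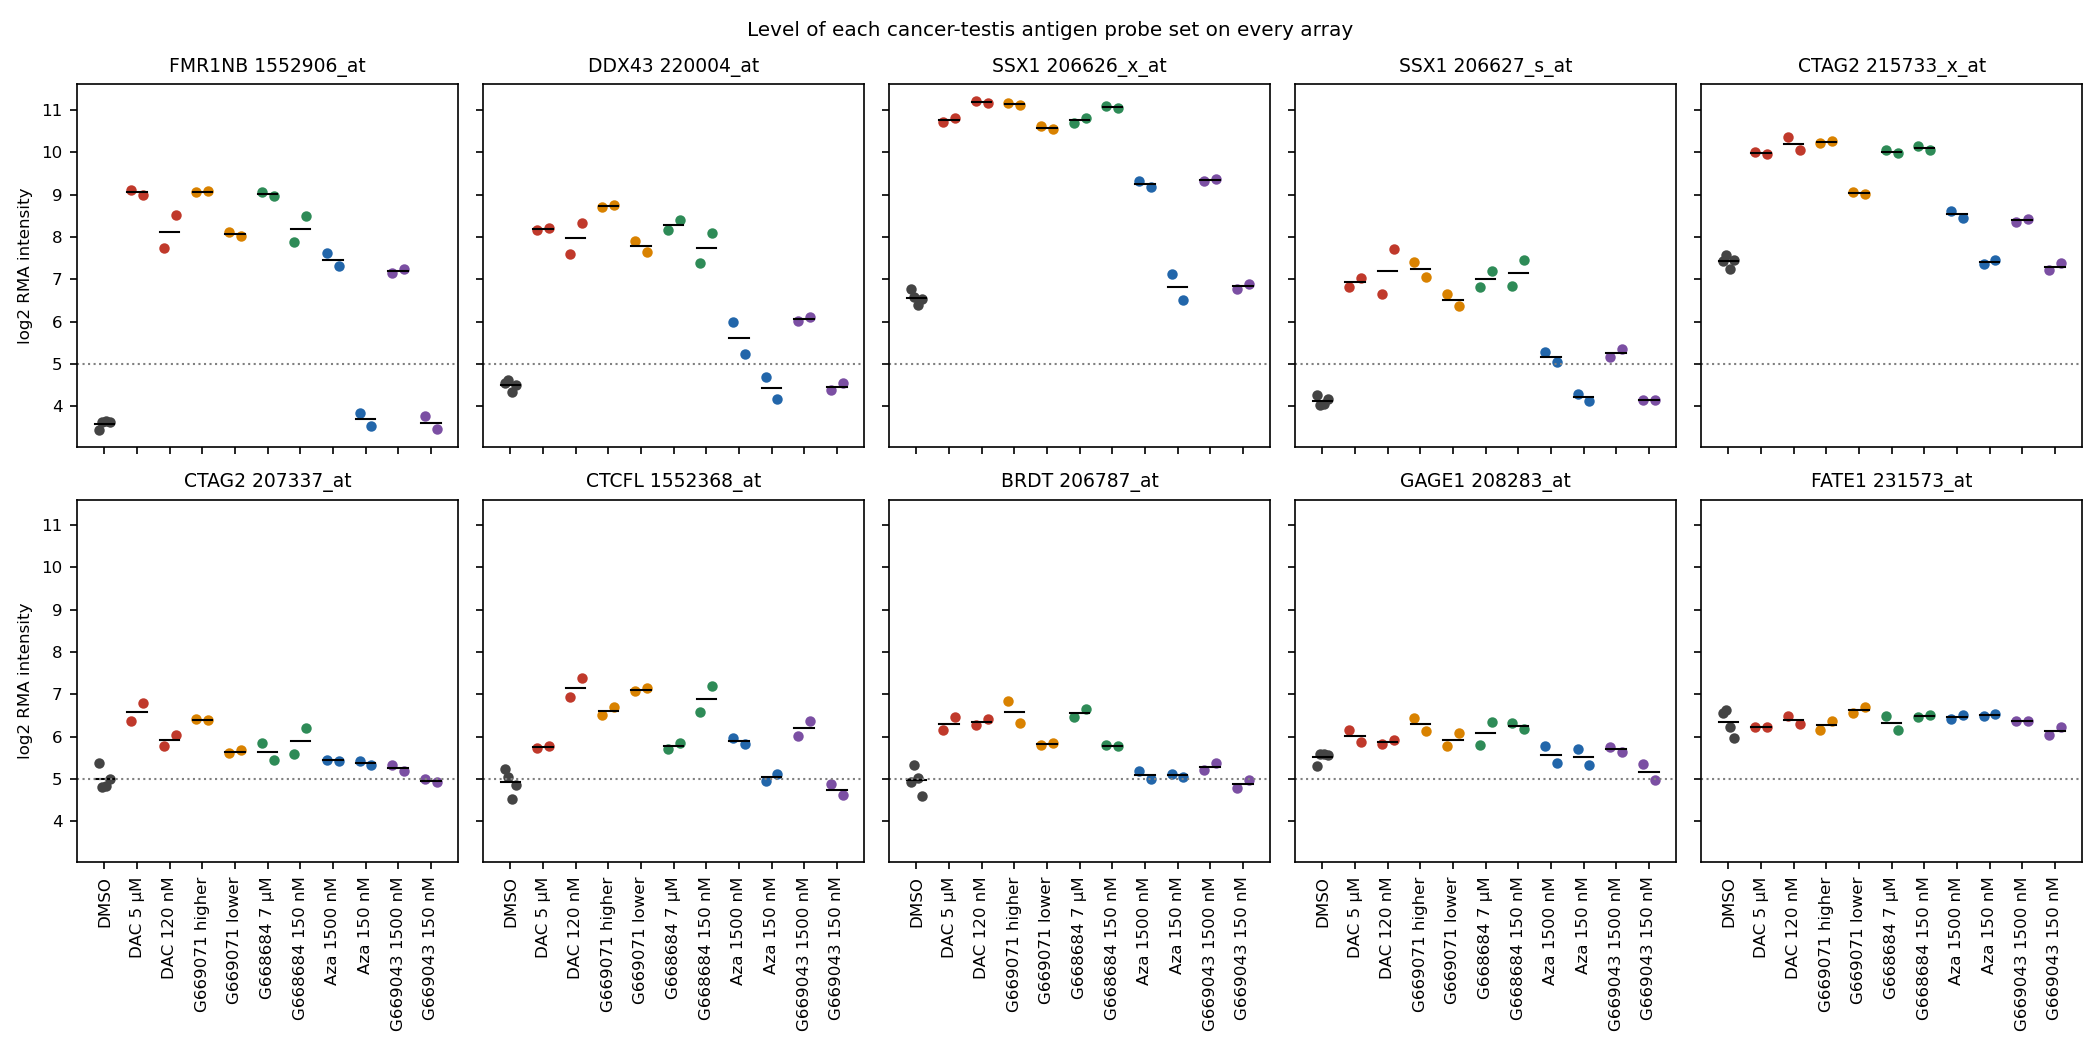
Log2 RMA intensity (y axis) of the 10 member probe sets on every array, 1 panel each, by group (x axis). Points are arrays, black bars group means and the dotted line the filter value of 5. FMR1NB lies at 3.43 to 3.64 in DMSO and at 9.05 and 9.08 with the higher dose of G669071, CTCFL was lower at the higher than at the lower dose of DAC, and FATE1 stayed between 5.97 and 6.71.

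FMR1NB, a gene next to FMR1 that encodes a testis membrane protein, rose in 8 of the treated groups. In DMSO its log2 level was 3.43, 3.62, 3.64 and 3.62, and with DAC at 5 µM it was 9.11 and 9.0. DAC at 120 nM gave 7.74 and 8.51, the higher dose of G669071 9.05 and 9.08, the lower 8.12 and 8.01, and G668684 9.06 and 8.97 at 7 µM and 7.87 and 8.50 at 150 nM. The 12 arrays of these 3 compounds lay far above DMSO with no overlap. Aza gave 7.62 and 7.31 at 1500 nM but 3.85 and 3.54 at 150 nM, and G669043 gave 7.14 and 7.25 and then 3.76 and 3.47. The 150 nM arrays of both overlapped DMSO, although 1 array of each, 3.85 and 3.76, lay above all DMSO arrays, while the 1500 nM arrays lay far above that range.

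The log2 fold change of FMR1NB was 5.48 ± 0.17 (SE, 2 arrays against 4, adjusted p = 7.15e-15) with DAC at 5 µM and 5.49 ± 0.17 with the higher dose of G669071. These sizes are differences from a DMSO value that may be background, and the probe set was tested only because treated arrays passed the filter. Aza at 1500 nM raised it by 3.89 ± 0.17 (adjusted p = 6.16e-12) and G669043 at 1500 nM by 3.62 ± 0.17 (adjusted p = 2.00e-11). Ranked by mean level, the higher doses of G669071, DAC and G668684 came first with overlapping arrays, then the lower doses of G668684, DAC and G669071, also overlapping, then Aza and G669043 at 1500 nM, each apart from its neighbours. The genes with the most similar mean profile over the 11 groups, among 1136 genes that varied by at least 1 log2 unit, were ZFP42, a transcription factor of pluripotent cells, at r = 0.99, the germ-cell RNA-binding protein DAZL at 0.99, and MAEL, a transposon silencer of germ cells, at 0.99. These correlations describe 11 group means that share arrays and normalization. FMR1, the coding gene on one side, stood at 10.30 ± 0.49 in DMSO (SD, n = 4) and moved by 0.20 ± 0.25 with DAC at 5 µM, and AFF2 on the other side by -0.09 ± 0.11. Neither neighbour was called there on the probe set used, the one with the highest mean, whereas FMR1NB between them was. Any other probe sets of the neighbours were not looked at.

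SSX1, a transcriptional repressor known from its fusion with SS18 in synovial sarcoma, rose in 8 of the treated groups on both of its probe sets. Its x_at probe set read 6.77, 6.58, 6.39 and 6.53 in DMSO and 10.71 and 10.81 with DAC at 5 µM. It read 11.21 and 11.17 with DAC at 120 nM, 11.16 and 11.11 and then 10.61 and 10.54 with the higher and lower dose of G669071, and 10.70 and 10.81 and then 11.09 and 11.05 with G668684 at 7 µM and 150 nM. For DAC and G668684 the lower dose thus gave the higher level, with no overlap, while G669071 ran the other way. With 2 arrays against 2 such separation alone says little, and its share over all probe sets was not counted. Limma did not call the difference for G668684 (adjusted p = 0.192). The call for DAC (adjusted p = 0.0478) was lost without the filter or without the trend. Aza gave 9.31 and 9.17 at 1500 nM and 7.12 and 6.50 at 150 nM, and G669043 gave 9.32 and 9.36 and then 6.78 and 6.88. One of the Aza arrays at 150 nM lay above all DMSO arrays and the other within them, and both G669043 arrays lay above all DMSO arrays, the lower by very little.

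The fold change of the x_at probe set was 4.19 ± 0.12 with DAC at 5 µM, 4.62 ± 0.12 with DAC at 120 nM and 2.67 ± 0.12 with Aza at 1500 nM (adjusted p = 6.16e-12). The SSX1 s_at probe set read 4.27, 4.04, 4.06 and 4.17 in DMSO, 6.82 and 7.04 with DAC at 5 µM, 6.65 and 7.72 with DAC at 120 nM, and 5.29 and 5.05 with Aza at 1500 nM. It also read 7.41 and 7.05 and then 6.64 and 6.37 with the higher and lower dose of G669071, and 6.81 and 7.19 and then 6.83 and 7.46 with G668684 at 7 µM and 150 nM. It was called higher in 8 groups, with 2.80 ± 0.21 with DAC at 5 µM and 1.12 ± 0.21 with G669043 at 1500 nM, sizes that are again unsettled because no DMSO array reached the filter level. The latter rested on 2 arrays of 5.16 and 5.35, and without replicate 2 it was 1.02 (adjusted p = 0.064). At 150 nM it read 4.30 and 4.13 with Aza and 4.15 and 4.15 with G669043, within or next to the DMSO range. The profiles of the SSX1 probe sets correlated at 0.97 over the group means.

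The neighbouring gene SSX3, another SSX copy, rose by 2.62 ± 0.17 with DAC at 5 µM from 6.37 ± 0.42 in DMSO (SD, n = 4), and by 1.12 ± 0.17 with Aza at 1500 nM (adjusted p = 0.000112). A further 8 probe sets carry several SSX symbols, and their fold changes with DAC at 5 µM ran from 1.04 to 3.55. Because the copies are so alike, how much of the SSX1 signal comes from SSX1 RNA itself is uncertain. The profiles most like SSX1 were DHRSX, of the short-chain dehydrogenase family, MAGEA1 and MAGEA12, each at r = 0.99.

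DDX43, a DEAD-box RNA helicase of the testis on an autosome, rose in 8 of the treated groups. Its DMSO levels were 4.54, 4.63, 4.33 and 4.51, and DAC gave 8.17 and 8.21 at 5 µM and 7.60 and 8.33 at 120 nM. G669071 gave 8.71 and 8.75 at the higher dose, which lay above every other group, and 7.90 and 7.65 at the lower, and G668684 gave 8.17 and 8.41 at 7 µM and 7.38 and 8.09 at 150 nM. Between these values and DMSO stood Aza at 1500 nM with 5.98 and 5.24 and G669043 at 1500 nM with 6.02 and 6.11. At 150 nM Aza read 4.70 and 4.18 and G669043 4.38 and 4.54, which overlapped DMSO.

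DDX43 rose, from a DMSO level that may be background, by 3.69 ± 0.21 with DAC at 5 µM (adjusted p = 4.30e-11), by 4.23 ± 0.21 with the higher dose of G669071 and by 1.56 ± 0.21 with G669043 at 1500 nM (adjusted p = 6.13e-05). The rise of 1.11 ± 0.21 with Aza at 1500 nM leaned on replicate 1: without it the value was 0.74 (adjusted p = 0.070). HSPA2, a heat shock protein of spermatocytes, MEIOC, a meiosis factor, and RIT1, a small GTPase, had the most similar profiles, each at r = 0.99. KHDC3L, an oocyte gene and the nearest coding gene before DDX43, rose by 1.45 ± 0.13 with DAC at 5 µM from 6.60 ± 0.27 (SD, n = 4), and CGAS, the DNA sensor after it, rose by 0.67 ± 0.16 (adjusted p = 0.00357). With Aza at 1500 nM KHDC3L rose by 0.59 ± 0.13 (adjusted p = 0.00392), and CGAS moved by 0.22 ± 0.16 with no call.

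CTAG2, a close relative of the antigen NY-ESO-1, was measured by probe sets that differ in size of response. The x_at probe set read 7.43, 7.57, 7.23 and 7.45 in DMSO, a mean of 9.98 with DAC at 5 µM (9.96 on the lower array) and 10.35 and 10.06 at 120 nM. With G669071 it read 10.22 and 10.27 and then 9.05 and 9.01, and with G668684 10.05 and 9.98 and then 10.14 and 10.05, at the higher and lower dose. Apart from the lower dose of G669071 the arrays of these groups all lay between 9.96 and 10.35. Aza gave 8.61 and 8.45 at 1500 nM and 7.36 and 7.46 at 150 nM, and G669043 8.36 and 8.42 and then 7.21 and 7.39.

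The fold change of the CTAG2 x_at probe set was 2.56 ± 0.09 with DAC at 5 µM, 1.61 ± 0.09 with the lower dose of G669071, 1.11 ± 0.09 with Aza at 1500 nM and 0.97 ± 0.09 with G669043 at 1500 nM (adjusted p = 7.59e-07). The plain at probe set of CTAG2 read 5.37, 4.81, 4.84 and 4.99 in DMSO, 6.37 and 6.80 with DAC at 5 µM, and 5.79 and 6.05 at 120 nM. It read 6.42 and 6.39 and then 5.62 and 5.68 with the higher and lower dose of G669071, and 5.86 and 5.44 and then 5.60 and 6.21 with G668684 at 7 µM and 150 nM. It rose by 1.58 ± 0.17 with DAC at 5 µM and by 1.40 ± 0.17 with the higher dose of G669071, but its rise with Aza at 1500 nM, 0.44 ± 0.17 (arrays of 5.45 and 5.43), was not called (adjusted p = 0.0916). That value became a call of 0.56 (adjusted p = 0.0184) without DMSO replicate 1, the highest DMSO array, and of 0.52 (adjusted p = 0.0310) against DMSO replicates 3 and 4 alone.

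Some weak calls of the CTAG2 at probe set were lost with 1 array fewer in the fit. Its rise of 0.65 with the lower dose of G669071 was 0.68 without replicate 1 of that group (adjusted p = 0.0863), 0.62 without replicate 2 (adjusted p = 0.130) and 0.56 against DMSO replicates 1 and 2 alone (adjusted p = 0.0684). The rise of 0.65 with G668684 at 7 µM was 0.44 without replicate 1 (adjusted p = 0.162). At 150 nM it read 5.43 and 5.32 with Aza and 4.99 and 4.94 with G669043, and at 1500 nM 5.34 and 5.19 with G669043, none of them called. The 3 probe sets shared by CTAG1A and CTAG1B, the genes of NY-ESO-1, changed by 2.11 to 3.86 with DAC at 5 µM and by 0.78 to 1.93 with Aza at 1500 nM. With G669043 at 150 nM they changed by -0.515 to 0.485, and 1 of them was called lower. Cross-binding among CTAG copies was not tested. The neighbour GAB3, a signalling adaptor, moved by 0.09 ± 0.12 with DAC at 5 µM and was called in none of the treated groups by limma. PRTFDC1, a gene of the purine salvage enzyme family, KRABD1 and UCHL1, a ubiquitin hydrolase of neurons and germ cells, were most like the CTAG2 x_at probe set, at r = 0.99 each.

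CTCFL, the germ-cell paralogue of the insulator protein CTCF, rose in 8 of the treated groups and stood over 1 log2 unit lower at the higher than at the lower dose of DAC and of G668684. Its DMSO levels were 5.24, 5.05, 4.53 and 4.86. DAC gave 5.73 and 5.79 at 5 µM but 6.93 and 7.39 at 120 nM, and G668684 gave 5.70 and 5.85 at 7 µM but 6.58 and 7.20 at 150 nM. The same order held for G669071 with 6.51 and 6.70 at the higher and 7.07 and 7.15 at the lower dose. In none of the 3 compounds did the doses overlap, but limma did not call the difference for G669071 (adjusted p = 0.183). Aza and G669043 went the other way, with 5.98 and 5.83 and then 4.95 and 5.13 for Aza and 6.01 and 6.38 and then 4.88 and 4.62 for G669043 at 1500 nM and 150 nM.

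CTCFL rose by 2.24 ± 0.18 with DAC at 120 nM (adjusted p = 1.63e-08), by 2.19 ± 0.18 with the lower dose of G669071 and by 1.97 ± 0.18 with G668684 at 150 nM, against 0.84 ± 0.18 with DAC at 5 µM and 0.85 ± 0.18 with G668684 at 7 µM. G669043 at 1500 nM raised it by 1.28 ± 0.18 and Aza at 1500 nM by 0.99 ± 0.18. In the order of means, DAC at 120 nM, the lower dose of G669071, G668684 at 150 nM and the higher dose of G669071 overlapped as neighbours, and Aza at 1500 nM, G668684 at 7 µM and DAC at 5 µM overlapped as well. Its mean profile correlated at 0.56 to 0.86 with the other members except FATE1. The closest profiles elsewhere were EFHD1, a calcium-binding protein, at r = 0.97, the cancer-testis gene PRAME at 0.96, and GCNT2, a glycosyltransferase, at 0.95. RBM38, an RNA-binding protein gene beside CTCFL, was called higher with DAC at 120 nM (0.34 ± 0.10), the lower dose of G669071 (0.38 ± 0.10) and G669043 at 1500 nM (0.40 ± 0.10, adjusted p = 0.0178), and in no other group. A list of paralogues of the members also held FMR1 and, set beside FATE1, other proteins of mitochondrial membranes. Of its 23 probe sets of 8 genes tested, 4 rose, in 2 genes, and 6 fell with DAC at 5 µM, where 15.1% of all rose and 13.1% fell. Their median was -0.03 against -0.05 for all probe sets. The ubiquitous paralogue CTCF fell by 0.63 ± 0.10 with DAC at 5 µM from 9.54 ± 0.11 in DMSO (SD, n = 4, adjusted p = 6.78e-05), and its change of -0.19 ± 0.10 with DAC at 120 nM was not called (adjusted p = 0.228).

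BRDT, the testis member of the BET family that reads acetylated histones, rose modestly. Its DMSO levels were 4.93, 5.34, 5.03 and 4.61, and DAC gave 6.15 and 6.46 at 5 µM and 6.28 and 6.41 at 120 nM. G669071 gave 6.85 and 6.32 at the higher and 5.81 and 5.86 at the lower dose, and G668684 6.46 and 6.65 at 7 µM and 5.80 and 5.78 at 150 nM. These 6 groups were above all DMSO arrays, while Aza with 5.19 and 5.00 at 1500 nM and 5.11 and 5.06 at 150 nM stayed among them. G669043 gave 5.21 and 5.37 at 1500 nM and 4.80 and 4.97 at 150 nM.

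BRDT rose by 1.33 ± 0.16 with DAC at 5 µM (adjusted p = 1.35e-06), by 1.61 ± 0.16 with the higher dose of G669071 and by 1.58 ± 0.16 with G668684 at 7 µM. Its fold changes of 0.12 ± 0.16 with Aza and 0.31 ± 0.16 with G669043 at 1500 nM were not called (adjusted p = 0.717 and 0.301). NELL2, a secreted neural glycoprotein, BEX5 and FBXL13, an F-box gene, had the most similar profiles, at r = 0.98 each. The neighbour TGFBR3, a co-receptor of TGF-beta, moved by 0.14 ± 0.08 with DAC at 5 µM without a call. It was called higher with DAC at 120 nM (0.58 ± 0.08), G668684 at 150 nM (0.50 ± 0.08) and the higher and lower dose of G669071 (0.37 ± 0.08 and 0.30 ± 0.08), and lower with Aza at 1500 nM (-0.33 ± 0.08, adjusted p = 0.0102). EPHX4, the neighbour on the other side, rose by 0.89 ± 0.25 with DAC at 5 µM (adjusted p = 0.0110) and by 0.69 ± 0.25 with G668684 at 7 µM (adjusted p = 0.0462), and was not called elsewhere. BRD3, a ubiquitous BET paralogue, fell by 0.60 ± 0.09 with DAC at 5 µM from 9.34 ± 0.08 (SD, n = 4).

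GAGE1 belongs to a tandem array of near-identical X-linked genes, and its single-symbol probe set moved little. It read 5.31, 5.60, 5.60 and 5.56 in DMSO, 6.17 and 5.88 with DAC at 5 µM and 5.82 and 5.93 at 120 nM. It read 6.45 and 6.13 and then 5.77 and 6.09 with G669071, and 5.81 and 6.35 and then 6.32 and 6.18 with G668684, at the higher and lower dose. All of these lay above the DMSO arrays, by small steps. Aza gave 5.77 and 5.37 and then 5.71 and 5.34, and G669043 5.76 and 5.65 and then 5.35 and 4.98, at 1500 nM and 150 nM.

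The rise was 0.77 ± 0.16 with the higher dose of G669071 (adjusted p = 0.00106) and 0.73 ± 0.16 with G668684 at 150 nM. The latter was 0.66 without replicate 1 (adjusted p = 0.0556). The rise of 0.51 with DAC at 5 µM was 0.36 without replicate 1 of that group (adjusted p = 0.259), 0.44 without DMSO replicate 1 (adjusted p = 0.0619) and 0.44 against DMSO replicates 3 and 4 alone (adjusted p = 0.0858). With G668684 at 7 µM it was 0.56, and 0.29 without replicate 2 (adjusted p = 0.358) or 0.50 against DMSO replicates 3 and 4 alone (adjusted p = 0.0509). DAC at 120 nM, with 0.36 ± 0.16, and the lower dose of G669071, with 0.41 ± 0.16, were not called (adjusted p = 0.143 and 0.112). HACD4, a fatty acid dehydratase, the cytokine receptor IL23R and RASIP1, an endothelial RAS-binding protein, had the most similar profiles, at r = 0.97, 0.96 and 0.96.

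The probe sets that carry several GAGE symbols gave another picture, and so which GAGE copies the cells transcribed is uncertain. The probe set with 13 GAGE symbols, GAGE1 among them, read 6.10 to 6.48 on the DMSO arrays and 11.35 and 11.42 with DAC at 5 µM, a rise of 5.11 ± 0.09 in a fit of all probe sets that are not controls (adjusted p = 1.55e-19). The probe set with 12 symbols, also with GAGE1, rose by 5.24 ± 0.11 there, and those with 10 and 5 symbols, without GAGE1, by 6.06 ± 0.12 and 6.18 ± 0.10. At 1500 nM Aza and G669043 raised the probe set with 13 symbols by 3.94 ± 0.09 and 3.99 ± 0.09, where the single-symbol GAGE1 probe set gave 0.05 ± 0.16 and 0.19 ± 0.16. PAGE1, a related gene beside the array, rose by 2.31 ± 0.17 with DAC at 5 µM and by 0.82 ± 0.17 with Aza at 1500 nM (adjusted p = 0.00197).

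**Figure D4:**
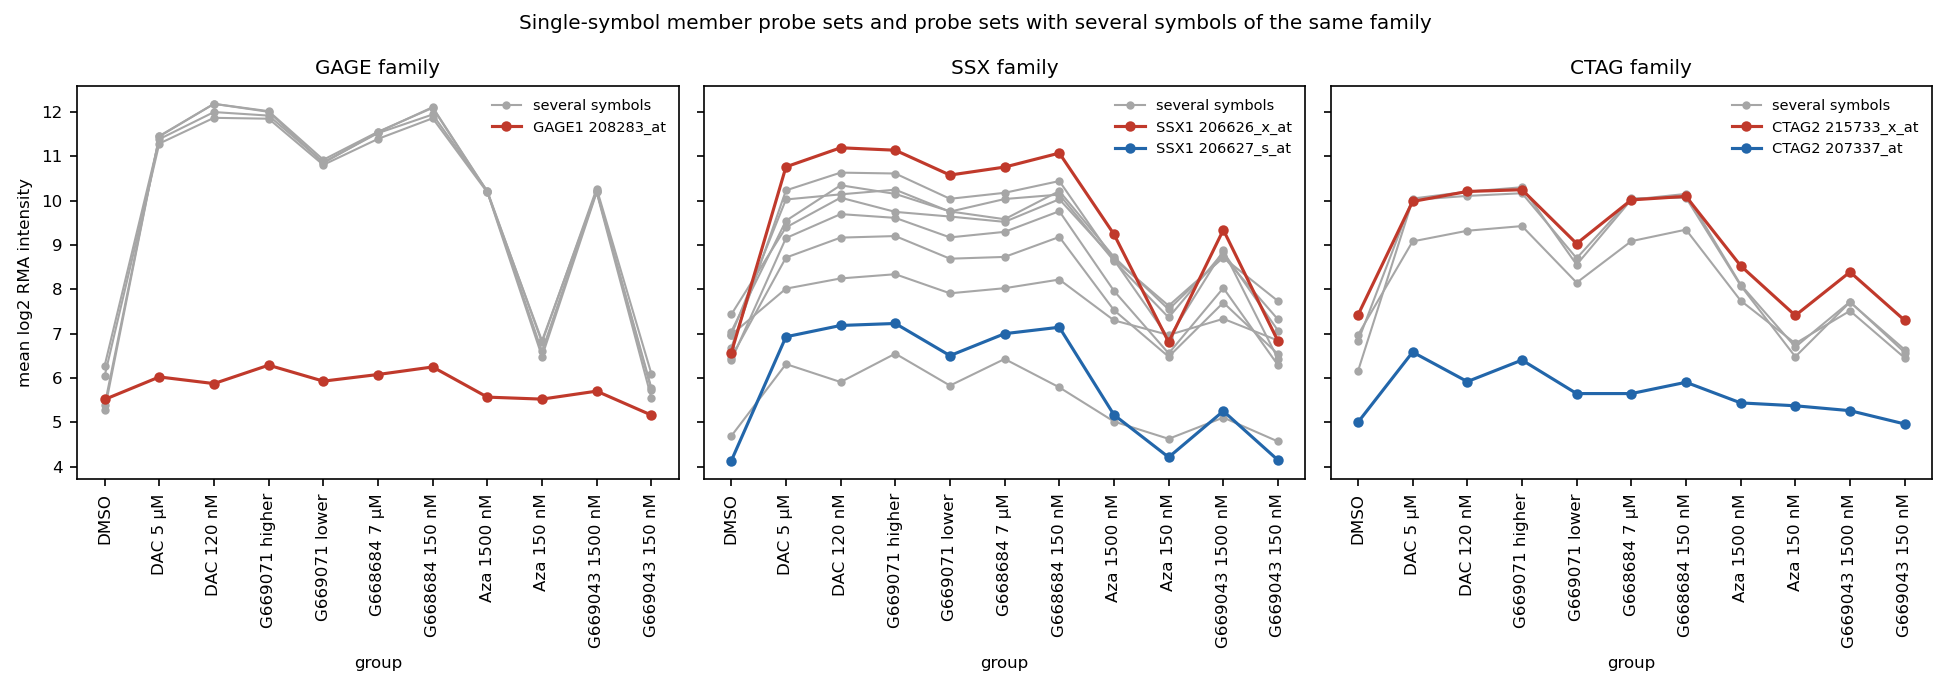
Mean log2 RMA intensity by group (x axis) of the member probe sets (colour) and of probe sets with several symbols of the same family (grey), for the GAGE, SSX and CTAG families. The 4 grey GAGE lines rise by 5.11 to 6.18 with DAC at 5 µM, while the single-symbol GAGE1 line rises by 0.51.

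FATE1, a protein of mitochondrial and endoplasmic reticulum contacts first found in fetal and adult testis, gave no call in any contrast of the limma fit, with 3 contrasts at an unadjusted p under 0.05. It read 6.57, 6.64, 6.24 and 5.97 in DMSO, 6.23 and 6.22 with DAC at 5 µM, 6.50 and 6.30 at 120 nM, and 6.16 and 6.38 and then 6.55 and 6.71 with the higher and lower dose of G669071. It read 6.48 and 6.15 and then 6.46 and 6.52 with G668684, 6.42 and 6.51 and then 6.48 and 6.54 with Aza, and 6.37 and 6.38 and then 6.04 and 6.22 with G669043. Every treated group overlapped the range of the DMSO arrays. Its fold changes ran from -0.22 ± 0.14 to 0.28 ± 0.14, and with DAC at 5 µM the value was -0.13 with a 95% interval reaching 0.29 to each side.

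The DMSO pairs stood 0.50 log2 apart for FATE1, which is as large as the whole span of its group means, 0.50. Against DMSO replicates 1 and 2 alone it was called lower with DAC at 5 µM, at -0.38 (adjusted p = 0.0126), with the higher dose of G669071, at -0.33, and with G669043 at 150 nM, at -0.47 (adjusted p = 0.00775). Against replicates 3 and 4 alone it was called higher with the lower dose of G669071, at 0.53 (adjusted p = 0.00406), with G668684 at 150 nM, at 0.39, and with Aza at 1500 nM, at 0.36 (adjusted p = 0.0340). No direction is therefore given for FATE1. The coding gene before it, PRRG3, moved by -0.11 ± 0.08 with DAC at 5 µM. The profiles most like FATE1 reached only r = 0.63, 0.63 and 0.63 (LOC100506405, VHRT and the transcription factor ATF5).

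The compounds were each given at a higher and a lower dose. For DAC, 4 of 10 member probe sets differed between 5 µM and 120 nM, where 11.4% of all probe sets were called in either direction. FMR1NB was higher at 5 µM by 0.93 ± 0.20 (2 arrays against 2, adjusted p = 0.00353) and CTAG2 at by 0.66 ± 0.19, while CTCFL fell by 1.40 ± 0.21 (adjusted p = 0.000125) and SSX1 x_at by 0.43 ± 0.14 (adjusted p = 0.0478). The SSX1 call was lost without any 1 of the 4 arrays, at -0.38 to -0.48 (adjusted p = 0.0790 to 0.234). Without DAC replicate 1 at 120 nM, FMR1NB was 0.54 (adjusted p = 0.118) and CTAG2 at 0.53 (adjusted p = 0.234), and without replicate 2 at 5 µM the latter was 0.45 (adjusted p = 0.336). The CTCFL call kept its side of the threshold in each of these.

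For G668684, 3 of 10 were called (8.52% of all). FMR1NB was higher at 7 µM by 0.83 ± 0.20 and BRDT by 0.76 ± 0.18 (adjusted p = 0.00946), and CTCFL was lower, at -1.12 ± 0.21 (adjusted p = 0.00135). Without replicate 1 at 150 nM, FMR1NB was 0.51 (adjusted p = 0.273) and BRDT 0.77 (adjusted p = 0.0674). FMR1NB without replicate 1 at 7 µM was 0.78 (adjusted p = 0.0822), and BRDT without replicate 2 at 7 µM was 0.67 (adjusted p = 0.0981). For DAC and for G668684 FMR1NB was thus called higher and CTCFL lower at the higher dose. Their doses differ, and the compounds were not tested against each other.

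For G669071, 6 of 10 were higher at the higher dose (6.5% of all), with CTAG2 x_at first at 1.22 ± 0.11 (adjusted p = 5.96e-07), FMR1NB at 1.00 ± 0.20 and DDX43 at 0.96 ± 0.24. SSX1 x_at (0.56 ± 0.14), BRDT (0.75 ± 0.18) and CTAG2 at (0.76 ± 0.19) were the others. CTCFL, at -0.50 ± 0.21, was not called (adjusted p = 0.183). Leaving out any 1 of the 4 arrays left between 1 and 3 calls. DDX43, SSX1 x_at and CTAG2 at lost theirs each time, with values from 0.83 to 1.08, 0.53 to 0.59 and 0.73 to 0.79. BRDT lost it in 3 of 4 cases and was 0.48 (adjusted p = 0.278) without replicate 1 of the higher dose, and FMR1NB was 0.95 (adjusted p = 0.0525) without replicate 2 of the lower dose.

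For Aza, 6 of 10 were higher at 1500 nM than at 150 nM (4.27% of all), led by FMR1NB at 3.77 ± 0.20 (adjusted p = 1.88e-10) and SSX1 x_at at 2.43 ± 0.14, with CTAG2 x_at at 1.12 ± 0.11, DDX43 at 1.17 ± 0.24, SSX1 s_at at 0.95 ± 0.24 and CTCFL at 0.87 ± 0.21. CTCFL and SSX1 s_at lost the call without any 1 of the 4 arrays, at 0.77 to 0.96 and 0.83 to 1.07. DDX43 lost it without replicate 1 at 1500 nM, at 0.80 (adjusted p = 0.127), or replicate 2 at 150 nM, at 0.91 (adjusted p = 0.158). For G669043, 6 of 10 were higher at 1500 nM (2.7% of all), led by FMR1NB at 3.58 ± 0.20 (adjusted p = 3.59e-10), SSX1 x_at at 2.51 ± 0.14, DDX43 at 1.61 ± 0.24 and CTCFL at 1.44 ± 0.21, with CTAG2 x_at at 1.09 ± 0.11 and SSX1 s_at at 1.11 ± 0.24. The last of these lost the call without any 1 array, at 1.01 to 1.20. With Aza and with G669043 at 150 nM, FMR1NB, DDX43 and SSX1 s_at read under 5 log2 and may be background. They passed the filter only through arrays where they were higher, so the sizes of their dose differences are unsettled. CTCFL too read under 5 on both arrays of G669043 at 150 nM.

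**Figure D5:**
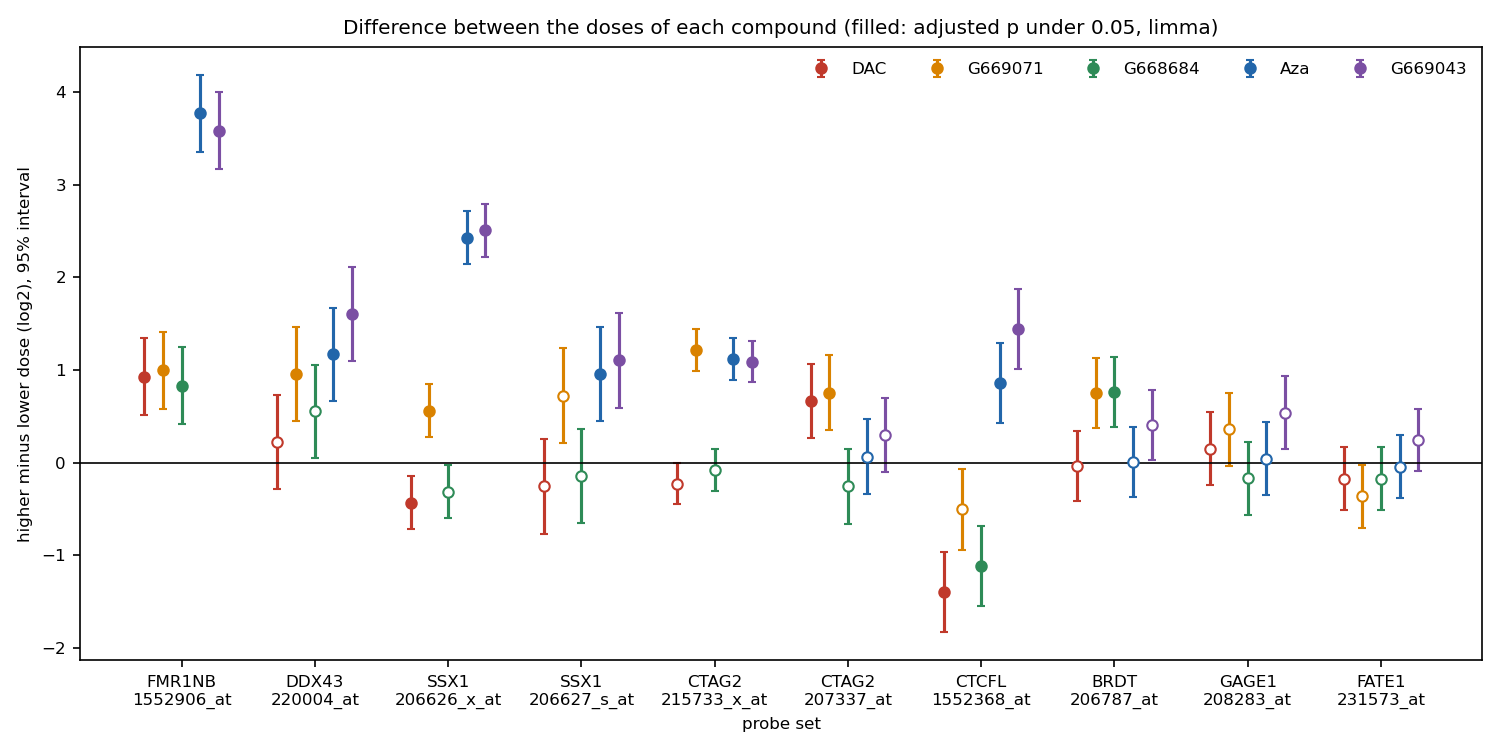
Higher minus lower dose on the log2 scale (y axis, with 95% intervals from limma) of each member probe set (x axis) for the 5 compounds (colour). Filled points have an adjusted p under 0.05. CTCFL is lower at the higher dose of DAC (-1.40) and G668684 (-1.12) and higher for Aza (0.87) and G669043 (1.44), and FMR1NB is higher at the higher dose for each compound.

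Aza and G669043 share the doses of 1500 nM and 150 nM, and G668684 shares 150 nM with both, so 4 comparisons between compounds were tested. Adjusting over the 4 together left the count of calls in each as it was. At 1500 nM limma called 0 of 10 member probe sets, with 0 at an unadjusted p under 0.05, where 1.25% of all probe sets were called in either direction. G669043 minus Aza was -0.27 for FMR1NB, with a 95% interval reaching 0.42 to each side, 0.10 ± 0.29 (95% interval) for SSX1 x_at, -0.14 ± 0.22 for CTAG2 x_at and 0.29 ± 0.43 for CTCFL. The largest value was 0.45 ± 0.50 for DDX43 (adjusted p = 0.395). These intervals leave room for differences of up to about these sizes and do not show that the compounds act alike.

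At 150 nM 0 of 10 were called and 2 had an unadjusted p under 0.05, where 0.0341% of all probe sets were called. Those 2 were CTAG2 at, at -0.41 with a 95% interval reaching 0.40 to each side, and FATE1, at -0.38 and 0.34. The probe sets with several GAGE symbols did differ between the compounds there: the one with 12 symbols read 6.79 and 6.89 with Aza and 5.75 and 5.81 with G669043, a difference of -1.06 ± 0.13 (SE, adjusted p = 0.000291). The probe set with 5 symbols differed by -0.93 ± 0.12 (adjusted p = 0.000529), that with 10 by -0.87 ± 0.14 and that with 13 by -0.70 ± 0.11. Aza at 150 nM thus held GAGE signal above DMSO, by 0.53 ± 0.09 to 1.21 ± 0.12, at a dose where no member probe set was called.

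G668684 at 150 nM was compared with Aza and with G669043 at 150 nM after the data had been seen. Against Aza 8 of 10 member probe sets were called, all higher with G668684, where 7.55% of all probe sets were called in either direction, and against G669043 9 of 10, all higher, where 18.6% were. SSX1 x_at differed by 4.26 ± 0.14 (SE, 2 arrays against 2, adjusted p = 2.14e-14) from Aza and by 4.24 ± 0.14 from G669043, FMR1NB by 4.49 ± 0.20 and 4.57 ± 0.20, and CTAG2 x_at by 2.68 ± 0.11 and 2.79 ± 0.11. DDX43 differed by 3.29 ± 0.24 and 3.28 ± 0.24, and CTCFL by 1.85 ± 0.21 and 2.14 ± 0.21. The arrays of G668684 lay apart from those of the other compounds for each of these. FMR1NB, DDX43 and SSX1 s_at read under 5 log2 with Aza and G669043 at 150 nM, so the sizes of their differences are unsettled. CTCFL, BRDT and CTAG2 at also read under 5 on both arrays of G669043 at 150 nM. The sizes of their differences from G669043 are unsettled too.

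BRDT was higher with G668684 than with Aza by 0.70 ± 0.18 (adjusted p = 0.0192) and GAGE1 by 0.72 ± 0.19 (adjusted p = 0.0205). BRDT lost that call without any 1 of the 4 arrays, at 0.68 to 0.73, and GAGE1 without either G668684 array, at 0.65 and 0.79, or without Aza replicate 2, at 0.54 (adjusted p = 0.266). CTAG2 at, with 0.53 ± 0.19 against Aza, was not called (adjusted p = 0.110) but was 0.83 (adjusted p = 0.0308) without G668684 replicate 1. FATE1 differed from Aza by -0.02 and from G669043 by 0.36, with 95% intervals reaching 0.34 to each side, and was called in neither.

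The remaining pairs of compounds differ in dose or have no settled dose, so their values stand side by side only. At their higher doses DAC (5 µM), G669071 and G668684 (7 µM) raised FMR1NB by 5.48, 5.49 and 5.44, SSX1 x_at by 4.19, 4.57 and 4.19 and DDX43 by 3.69, 4.23 and 3.79. CTCFL rose by 0.84, 1.69 and 0.85, so here G669071 gave the larger value. At their lower doses DAC (120 nM), G669071 and G668684 (150 nM) raised CTAG2 x_at by 2.79, 1.61 and 2.67 and BRDT by 1.37, 0.86 and 0.81.

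Other cancer-testis genes were taken from lists written with earlier results of these data known. In a list outside MAGE-A whose genes on the array lie on the X chromosome, except for ARMC3, 31 probe sets of 24 genes were tested. Of these 23 rose with DAC at 5 µM (15.1% of all probe sets did, median 1.00 against -0.05 for all) and 24 with DAC at 120 nM (10.5%). With either dose of G669071 22 rose (13.6% and 6.78% of all at the higher and lower dose). With either dose of G668684 24 rose (14.8% and 8.89%). Aza raised 20 at 1500 nM (6.09%) and 1 at 150 nM (0.666%), and G669043 raised 14 (4.24%) and 0 (0.222%). With Aza at 150 nM 1 was called lower by limma, where 0.282% of all were. With the other compounds and doses none was, where 0.0341% to 13.3% of all were. At an unadjusted p under 0.05, 1 was lower with Aza at 150 nM, 3 were lower and 3 higher with G669043 at 150 nM, and none was lower elsewhere. TKTL1, a transketolase-like gene, went from 5.24 ± 0.37 in DMSO (SD, n = 4) up by 7.01 ± 0.16 with DAC at 5 µM, 5.74 ± 0.16 with Aza at 1500 nM and 1.69 ± 0.16 with Aza at 150 nM. MAGEB6 rose by 3.16 ± 0.29 and the meiosis gene TEX11 by 2.51 ± 0.15 with DAC at 5 µM.

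A second list of cancer-testis genes, autosomal but for PLAC1 and TFDP3 among the genes placed, had 68 probe sets of 45 genes. With DAC at 5 µM 22 rose and 11 fell, where 15.1% of all probe sets rose and 13.1% fell, with a median of -0.03, and with Aza at 1500 nM 11 rose and 4 fell, against 6.09% and 8.21% of all. MAEL rose by 5.20 ± 0.11 with DAC at 5 µM, LY6K, a surface protein of the testis, by 3.68 ± 0.13, the RNA-binding protein RBM46 by 2.97 ± 0.34 and TFDP3 by 2.35 ± 0.12. Of the germ-cell and Sertoli markers, 9 probe sets were tested and 5 rose with DAC at 5 µM (15.1% of all probe sets did), among them DAZL by 6.77 ± 0.19, SYCP3, of the meiotic chromosome axis, by 4.04 ± 0.18, and DDX4, a germ-cell helicase, by 1.62 ± 0.11. Retina, muscle, pancreas and pituitary genes, taken as a reference for low levels, had 6 of 18 probe sets higher with DAC at 5 µM. This share too lay above the 15.1% of all probe sets, and the muscle creatine kinase CKM rose by 2.13 ± 0.11. Fibroblast and endothelial markers had 2 of 18 higher, a share below that 15.1%. The part of other cell types in the members' levels was not tested.

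In the DNA methylation machinery 37 probe sets of 17 genes were tested, and with DAC at 5 µM 4 rose and 11 fell, where 15.1% and 13.1% of all probe sets did. HELLS, a remodeller needed for methylation, fell by 1.32 ± 0.21, UHRF1, which brings DNMT1 to replicated DNA, by 0.73 ± 0.12 and the histone methyltransferase EZH2 by 0.66 ± 0.13, while MBD1, a methyl-CpG binder, rose by 0.86 ± 0.10. With Aza at 150 nM limma called no probe set of this list, where 0.666% of all were called higher and 0.282% lower. With G669043 at 150 nM it also called none (0.222% and 0.0341% of all). At such low shares 0 of 37 says little about the list. The unadjusted counts at 150 nM were 0 higher and 1 lower with Aza, and 5 higher and 2 lower with G669043.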

How the data were processed

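RNA of HCT116 cells was hybridized to 24 arrays, grouped by compound and dose from the labels. The authors deposited linear intensity values for 54675 probe sets, made by RMA. The submitters' processing notes name Expression Console 1.1 for this. Their log2 was taken here. Gene names are those of the platform annotation, and promoters and neighbours those of RefSeq (GRCh38.p14). Probe sets with 1 symbol and a log2 level of at least 5 on at least 2 arrays (35146) entered 1 limma 3.58.1 model with a mean per group (R 4.3.3, eBayes with trend, 13 residual degrees of freedom), with 17 contrasts, 2 more added after the data had been seen (G668684 against Aza and G669043 at 150 nM), and Benjamini-Hochberg adjustment over all probe sets of a contrast, 2-sided. The model was tested on simulated data. The number of arrays limits precision: the median 95% interval reached 0.22 against DMSO and 0.25 between treated groups. Errors of fold changes are SEs, those of levels SDs. Members and lists were chosen with earlier results of these data known. Named beside the members are the 3 genes with the most similar profile, the neighbouring coding genes with a probe set tested, and up to 4 genes of each list with the largest called change with DAC at 5 µM. Each neighbour was read from its probe set with the highest mean. Alternatives covered the filter, normalization, trend, probe-set choice, DMSO pairs, the replicate block and single arrays left out. No column was left unused. Python 3.11.15, pandas 2.3.3 and matplotlib drew tables and figures.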

Additional observations from a re-analysis of the deposited data

Results flagged for a closer look

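In DMSO, replicate 1 stood apart for FMR1NB (3.43 against 3.62 to 3.64, gap over range 0.906) and for GAGE1 (5.31 against 5.56 to 5.60, 0.863), above the 95% limit for 4 values. Chance gives about 1 such flag in 20 groups, and 10 groups were looked at.

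In several members both arrays of the higher dose lay above both of the lower dose for 1 compound and below them for another. With 2 arrays against 2 such separation also arises often by chance, and how many of all probe sets show this pattern was not counted. The difference between the compounds was not tested because their doses differ. For CTCFL the higher minus the lower dose was -1.40 for DAC, -0.50 for G669071 and -1.12 for G668684 but 0.87 for Aza and 1.44 for G669043. For SSX1 x_at it was -0.43 for DAC and -0.32 for G668684 but 0.56 for G669071, 2.43 for Aza and 2.51 for G669043. CTAG2 x_at gave -0.23 for DAC but 1.22, 1.12 and 1.09 for G669071, Aza and G669043. FATE1 gave -0.18 for DAC and -0.36 for G669071 but 0.25 for G669043, none of them called by limma.

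The probe sets with 13 and 12 GAGE symbols, which include GAGE1 but fall outside the members, rose by 5.11 and 5.24 log2 with DAC at 5 µM, from a DMSO range of 5.83 to 6.48.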

How the results depend on the processing

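Over the first 17 contrasts, of 89 called fold changes, 68 kept the call under every alternative run, 21 lost it under at least 1, and 0 of 1451 alternative values reversed. Of 280 alternative counts of called members, 259 stayed within 1.5 times. With probe sets that can bind several transcripts left out, only 7 member probe sets remain, and 5 were called with DAC at 120 nM and with the lower dose of G669071, and 3 with Aza and with G669043 at 1500 nM, against DMSO and against their 150 nM dose, and 5 for G668684 against Aza at 150 nM. Fitting only the groups compared gave 1 call for the DAC doses, 10 for the G669071 doses and 2 for G669043 against Aza at 150 nM; the cause was not tested. With 1 array left out of each group in turn, calls ran from 0 to 1 for Aza at 150 nM against DMSO, from 2 to 4 for the DAC doses, from 1 to 3 for G669071, from 1 to 4 for G668684 and from 3 to 4 for Aza, where a lone array is assumed to vary like the others. The labels do not say that replicate numbers mark a shared batch. Over 55 pairs of groups the deviations of same-numbered arrays correlated at -0.38 to 0.60, median 0.03, and in 23 pairs above 0.1, so they were not treated as pairs. With the replicate block, which uses only DMSO replicates 1 and 2, G669043 at 150 nM had 1 call, FATE1 lower at -0.475, as with these DMSO replicates alone. DAC at 5 µM had 10 with the block, among them FATE1 called lower, at -0.38. FATE1 was also called lower there with the higher dose of G669071, at -0.33. G668684 against G669043 at 150 nM had 10 as well, where FATE1 joined as higher, at 0.36. Beside the counts named, the 2 added comparisons stayed within 1.5 times under the alternatives run. Depth cannot be read from arrays, and levels under 5 log2 may be background, as may some levels above it.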
